A study of Pinctada fucata with 15 samples.

Results

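The umbonal stage was the last larval stage sampled in this study of the pearl oyster *Pinctada fucata*. Examined were 200 microarray probes whose signal was highest at that stage, and highest by the widest margin. They were taken from the 58583 probes designed from unigenes (assembled transcript sequences). For each probe, the score was the umbonal mean minus the highest mean of the other 4 stages, on the log2 scale of the authors' processed table. Of all unigene probes, 46956 were well above background on the 3 umbonal arrays, which means that the scanner software marked their signal as clearly brighter than the surrounding slide. The 200 highest scores among these were kept, and 1 further probe was left out by the rule. The umbonal mean was the highest of the 5 stages for 7630 of the 46956 probes (16.2%), so that the 200 stand at the far end of a wider group. Each probe belonged to a different unigene.

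The study followed normal larval culture with no treatment. Whole animals were pooled at 5 ages counted from insemination: fertilized eggs at 0 h, the trochophore stage at 17 h, the D-shaped stage at 48 h, the umbonal stage at 14 days and juveniles at 35 days. There were 3 pools per stage, each on 1 one-colour Cy3 array. Larvae were harvested once most of a culture had reached the stage, so a pool may hold neighbouring stages as well. The probes were designed from a transcriptome of adult mantle, the tissue that secretes the shell, so a larval transcript that was missing from adult mantle has no probe here. In pools of whole animals, fewer cells of a type and less RNA per cell cannot be told apart.

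In bivalves, the trochophore is a ciliated swimming larva without a valved shell. The D-shaped larva has its first shell of paired valves and swims with the velum, a ciliated organ that also gathers food. In the umbonal larva the valves bulge near the hinge into the umbo, the gut is at work, and the foot and other organs of the settled animal develop before metamorphosis. The juvenile has lost the velum, lives attached, and lays down the adult shell with its nacreous and prismatic layers.

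Of the 2 slides, the first carried all egg and trochophore arrays with D-shaped pools 1 and 2. All umbonal and juvenile arrays lay on slide 2, together with D-shaped pool 3. Umbonal and juvenile arrays therefore share a slide, whereas the umbonal stage and the 2 earliest stages cannot be told apart from the slide. Known stage genes served as a check of the labels. Of 29 probes that the study lists for biomineralization-related genes, not counting the probe left out by the rule, 27 had their highest mean in juveniles. At the umbonal stage 0 were highest. Of 4 chitin synthase probes, 3 were highest at the D-shaped stage and 1 in juveniles. Probes that the study lists for cilia between the umbonal stage and juveniles gave a mixed result. Of 17 for the cilium, 9 were highest at the umbonal stage, 5 in eggs, 2 at the trochophore stage and 1 at the D-shaped stage. Of 15 for the axoneme, the core of a cilium, 9 were highest at the umbonal stage, 5 in eggs and 1 at the trochophore stage. These lists were chosen by the study on the same samples. None of the 29 biomineralization probes, the 4 chitin synthase probes and 26 listed probes of tyrosine metabolism was among the 200, and these lists overlap.

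**Figure D1:**
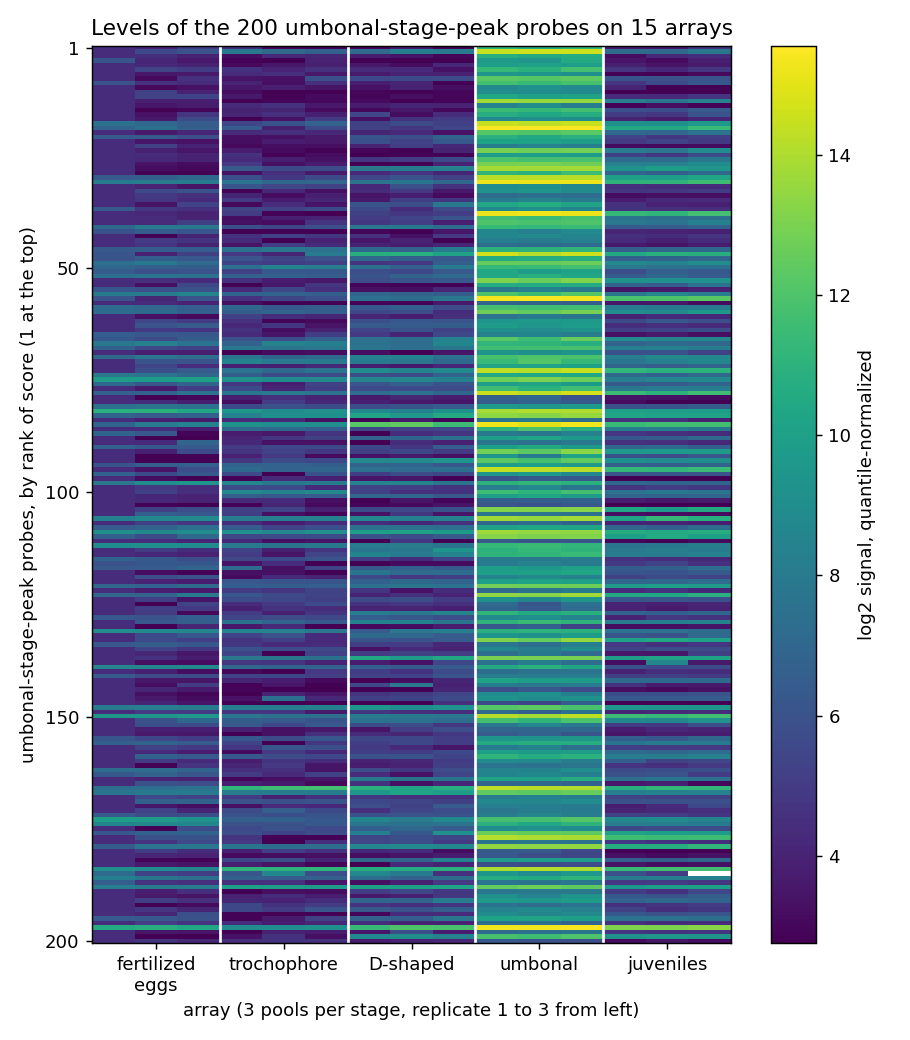
Quantile-normalized log2 signal (colour) of the 200 umbonal-stage-peak probes (rows, highest score at the top) on the 15 arrays (columns, 3 pools per stage in developmental order). The umbonal columns are the brightest in the rows, the 3 umbonal pools are alike, and rows with a visible signal elsewhere have it mostly in juveniles. The white cell is an outlier spot that was left out.

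The scores chose the 200 probes and are given as a description. They lay between 2.18 and 6.51 on the log2 scale (median 2.70), which corresponds to 4.54-fold to 91.1-fold (median 6.48-fold) over the next highest stage. A score of at least 3 (8-fold) was reached by 69 probes, at least 4 (16-fold) by 23 and at least 5 (32-fold) by 12. The last probes inside the limit were CUST_11918, CUST_5285 and CUST_10418, with scores of 2.19, 2.19 and 2.18. The first outside were CUST_47810, CUST_42986 and CUST_37708, with 2.18, 2.17 and 2.17, so the boundary cuts through a continuous range.

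All levels below are log2 signals after quantile normalization across the 15 arrays, a scale on which arrays can be set side by side. The umbonal means spread over a wide range, from 5.75 to 15.51 (median 9.97), against a median of 8.89 over all probes that passed the umbonal filter. Of the 200, 98 had an umbonal mean of at least 10 and 18 of at least 14. The pools agreed closely. The SD over the 3 umbonal pools was 0.20 at the median, against 0.19 over all probes that passed the filter, and exceeded 0.5 for 11 probes. Pool 1 was the highest of the 3 for 42 probes, pool 2 for 74 and pool 3 for 84, and the same pools were highest for 17.0%, 44.3% and 38.7% of all probes that passed the filter.

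For 198 of the 200 probes every umbonal pool lay above all 12 pools of the other stages. The same held for 8.12% of all probes that passed the umbonal filter, and the rule itself favours it. The gap between the lowest umbonal pool and the highest other pool was 2.34 at the median and at least 1 for 189 probes. The 2 exceptions each rested on a single array. CUST_11524 had 7.59, 8.17 and 7.33 in the umbonal pools, against 3.23, 8.66 and 3.66 in juveniles, so that juvenile pool 2 alone was above them. CUST_24202 had 8.13, 7.83 and 7.96 in the umbonal pools, against 5.57, 7.86 and 3.90 in the D-shaped pools, where pool 2 reached the umbonal level. Both exceptions were chosen after their values were seen.

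The 200 probes differed most in where else they were detected. In juveniles, 161 were well above background on all 3 arrays and 24 on none. At the D-shaped stage 79 were detected on all 3 arrays and 52 on none, at the trochophore stage 36 and 132, and in fertilized eggs 21 and 140. Among all 7630 probes highest at the umbonal stage, the shares detected on all 3 arrays were 94.8% in juveniles, 73.8% at the D-shaped stage, 54.3% at the trochophore stage and 38.8% in fertilized eggs. A high score favours probes that are dim elsewhere, so these shares are a description and not a test. Of the 200, 18 were well above background on all 15 arrays, and no share over the wider group is given for this count.

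By detection, 84 probes were on in all juvenile pools and on at least 1 array of eggs or trochophores, and this group was the brightest at the umbonal stage (median of the umbonal means 11.46). A further 54 were on in all juvenile pools and at least 1 D-shaped pool but in no egg or trochophore pool (median 9.10), and 23 were on in juveniles and at no earlier stage (median 10.16). For 15 probes only 1 or 2 juvenile arrays were well above background, and 3 were on in no juvenile pool but in an earlier one. The remaining 21 probes were on at the umbonal stage alone (median 6.53). Of the 7630 probes highest at the umbonal stage, 0.747% were detected at that stage alone.

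**Figure D2:**
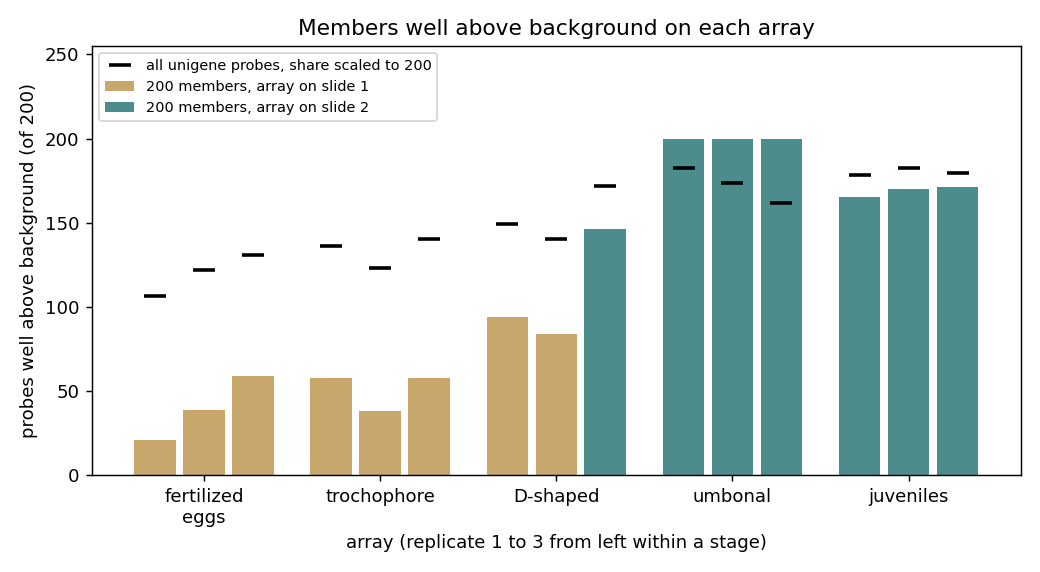
Number of the 200 probes well above background on each array (bars, coloured by slide), with the share of all unigene probes scaled to 200 (black marks), for 3 pools per stage in developmental order. The umbonal bars are at 200 by the rule, juveniles reach 165 to 171, and D-shaped pool 3 on slide 2 reaches 146, against 94 and 84 in the D-shaped pools on slide 1.

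Detection at the D-shaped stage differed between the slides, but with 1 D-shaped array on slide 2, slide and pool cannot be told apart. D-shaped pool 3, on slide 2, had 146 of the 200 probes well above background, against 94 and 84 in pools 1 and 2 on slide 1. Of the 51 probes detected on exactly 1 D-shaped array, 50 were detected on that of pool 3. The same array had 86.0% of all unigene probes well above background, against 74.5% and 70.2%. The levels moved less than the flags. The difference between pool 3 and the mean of pools 1 and 2 was 0.05 at the median over the 200 probes and -0.08 over all unigene probes, and 0.41 over those 51. Pool 3 was higher than both other pools for 81 probes and lower than both for 67. In fertilized-egg pool 1, 125 of the 200 probes and 30.9% of all unigene probes shared the lowest value, 4.36, so values there have no order. The part of the slide in the detection counts of the earliest stages was not tested.

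The 21 probes detected at the umbonal stage alone were mostly dim, with umbonal means from 5.75 to 9.99. For a stage where no array was above background, the fold is given as a lower bound: it sets the umbonal mean against the lowest signal of detected probes on those arrays, or the probe's own where that was higher. For 9 of the 21 this bound was at least 1 against each of the 4 stages, and for the others no fold is given. The brightest was CUST_41144, with 9.94, 10.15 and 9.87 in the 3 umbonal pools and values between 3.09 and 4.36 on the 12 other arrays. Its umbonal level was at least 74.7-fold higher than in juveniles, 31.2-fold higher than at the D-shaped stage and 9.40-fold higher than in fertilized eggs. CUST_49517 (umbonal mean 9.34 ± 0.12, SD, n = 3) and CUST_44872 (8.99 ± 0.22, SD, n = 3) followed, at least 47.9-fold and 35.8-fold higher than in juveniles.

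Those 3 probes were also among the 10 highest scores. The highest was CUST_3074, with 11.13, 10.57 and 11.20 in the umbonal pools. It had 4.36, 3.94 and 5.11 in fertilized eggs, 4.43, 2.86 and 2.89 at the trochophore stage, 2.86, 3.65 and 2.75 at the D-shaped stage and 3.61, 3.41 and 4.75 in juveniles, where 1 array was above background. All 12 other arrays lay far below the umbonal ones, which exceeded the D-shaped stage at least 61.7-fold.

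CUST_23746 had the second highest score and differed from the other leading probes in being present for longer. It had 4.36, 5.60 and 6.04 in fertilized eggs, 7.95, 7.17 and 6.74 at the trochophore stage, 7.24, 8.26 and 8.10 at the D-shaped stage, 14.50, 14.62 and 14.62 at the umbonal stage and 7.27, 7.21 and 7.93 in juveniles. It was off in eggs and detected on every later array, and the umbonal level was 105-fold higher than the D-shaped level and 138-fold higher than the juvenile level. It could be tested against eggs only through the trochophore stage, which was at least 1.45-fold higher. The limma adjusted p of 0.00091 belongs to the measured difference from undetected egg values (1.95 ± 0.42, SE), not to this bound. The difference between juveniles and the D-shaped stage, -0.39 ± 0.42 (SE), did not pass the test (adjusted p = 0.43).

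Among the remaining leading probes, CUST_29389 had umbonal levels of 10.80, 10.52 and 10.68 and at most 4.46 elsewhere. CUST_48686 had 9.75, 9.44 and 10.57, with a single egg pool at 6.07 that was not well above background. CUST_15030 had 11.26, 10.93 and 11.73, and its juvenile levels of 4.66, 4.23 and 4.80 were low but above background, a difference of 107-fold. CUST_29746 had 11.72, 11.36 and 11.83 in the umbonal pools, against 4.76, 5.63 and 6.26 in juveniles, and was off at the earlier stages. The files and the study's lists give no gene name or pathway for these probes. Of the 10 leading probes only CUST_31116 had one and is described with the other probes that carry a term.

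**Figure D3:**
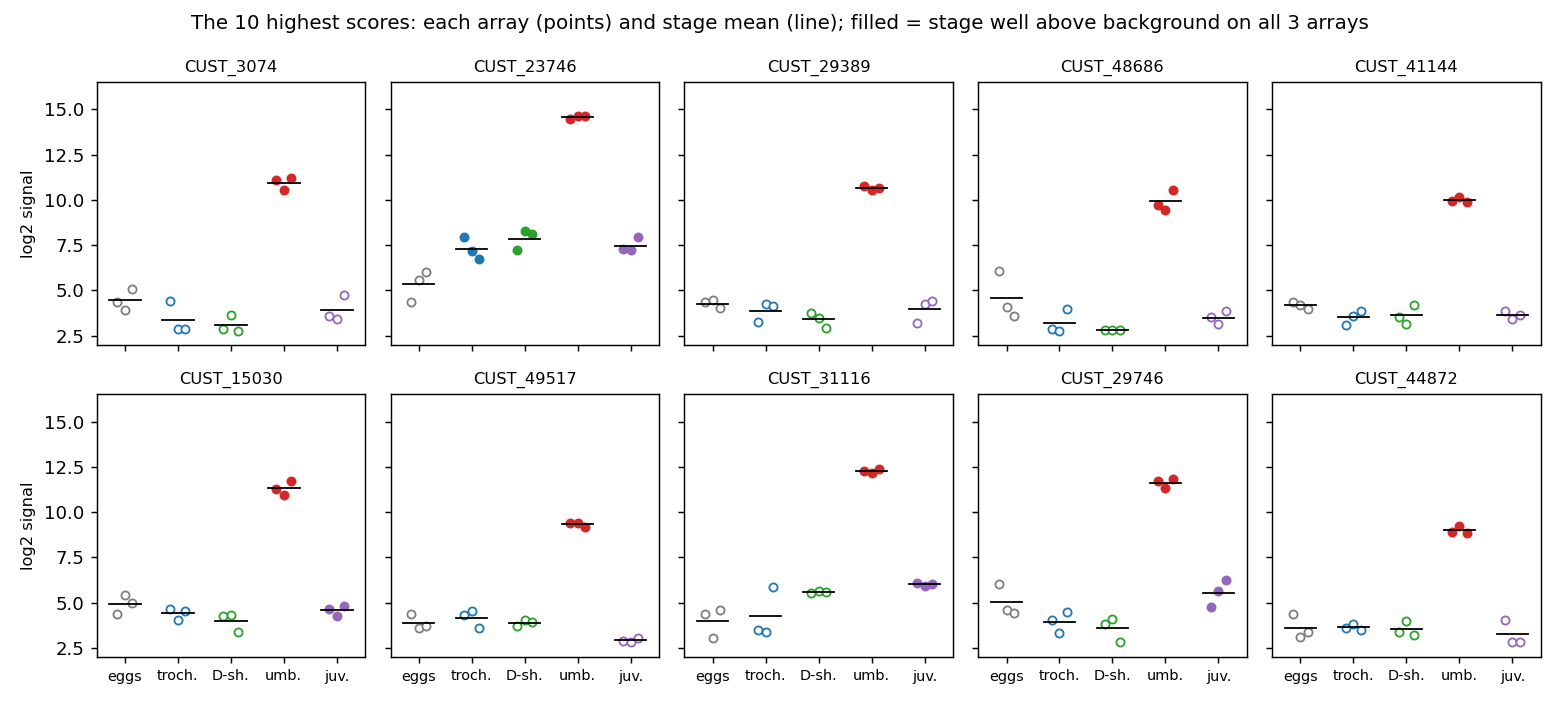
Quantile-normalized log2 signal (vertical axis) of the 10 probes with the highest scores on each array (points) at the 5 stages in developmental order, with the stage mean as a line and filled points where the stage was well above background on all 3 arrays. The umbonal points lie between 8.86 and 14.62, and CUST_23746 is the one with filled points at the trochophore, D-shaped and juvenile stages.

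The brightest probes at the umbonal stage were of another kind, since most of them stayed high in juveniles. CUST_27760 had 15.49, 15.56 and 15.49 in the umbonal pools, against 10.51, 10.48 and 11.38 in juveniles, a difference of 26.4-fold. At the D-shaped stage it had 5.21, 4.77 and 5.47, and only 1 of these arrays was above background. CUST_26508 followed the same course, with 15.19, 15.22 and 15.19 in the umbonal pools, 11.26, 11.13 and 11.71 in juveniles and no detection in eggs or trochophores. Its umbonal level was at least 572-fold higher than at the trochophore stage and 14.2-fold higher than in juveniles. CUST_57125 had 15.35, 15.45 and 15.35 in the umbonal pools, 11.86, 11.96 and 12.27 in juveniles and 7.43, 7.28 and 7.83 at the D-shaped stage.

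CUST_44873 was detected on all 15 arrays. Its levels were 8.09, 8.17 and 8.14 in eggs, 7.62, 7.07 and 6.96 at the trochophore stage, 7.70, 7.80 and 7.03 at the D-shaped stage, 15.25, 15.19 and 15.24 at the umbonal stage and 11.09, 11.07 and 11.57 in juveniles. The 3 early stages were low and close together, and juveniles lay between them and the umbonal stage without overlap. Its unigene number directly follows that of CUST_44872, the only such pair of neighbours among the 200. CUST_31484 had 15.32, 15.31 and 15.45 at the umbonal stage and was bright throughout. It had 10.62, 10.75 and 10.39 in eggs, 8.91, 8.99 and 9.20 at the trochophore stage, 11.43, 12.02 and 11.90 at the D-shaped stage and 13.08, 13.01 and 13.26 in juveniles, and its umbonal level was 4.72-fold higher than the juvenile level.

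Where a probe was detected on all 3 arrays of both stages, the umbonal level was 10.01-fold higher than that of juveniles at the median (161 probes, 4.72-fold to 138-fold). Against the D-shaped stage the median was 11.46-fold (79 probes, 4.73-fold to 348-fold), and against the trochophore stage 20.1-fold (36 probes, 6.38-fold to 257-fold). Against fertilized eggs it was 9.29-fold (21 probes, 3.92-fold to 137-fold). These folds follow from the rule and were not tested. They set different probes against each stage and do not rank the stages.

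On the authors' scale, the second highest stage was most often the juvenile stage. Juveniles came second for 128 of the 200 probes, the D-shaped stage for 34, fertilized eggs for 22 and the trochophore stage for 16. The juvenile count depended on the scaling. After quantile normalization juveniles came second for 82 of the 200 and the D-shaped stage for 35, without a share over the wider group. Over all 7630 probes highest at the umbonal stage, the shares on the authors' scale were 49.7%, 28.2%, 8.37% and 13.7%. For many probes the second stage was below background and has no order. Among the 152 probes whose second stage was detected on all 3 arrays, juveniles came second for 118 (77.6%) and the D-shaped stage for 24 (15.8%), against 53.9% and 27.2% of the 6882 probes in the wider group. After quantile normalization, the count among probes with a detected second stage was 81 of 121 (66.9%) for juveniles. For the D-shaped stage it was 24 (19.8%), against 50.01% and 28.68% of 6904 probes. Fertilized eggs were second for 6 of the 152 and the trochophore stage for 4, against 7.05% and 11.9% of the wider group. All juvenile arrays lay on slide 2 with the umbonal arrays. Every array of slide 2 had a larger share of all probes above background than any of slide 1. Requiring detection can thus favour juveniles over the earlier stages, and the part of the slide in these counts was not tested.

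How the 200 probes changed among the other stages was not used by the rule, which caps these stages but does not order them. With limma, the trochophore stage was compared with eggs, the D-shaped stage with the trochophore stage, and juveniles with the D-shaped stage. The last pair has the umbonal stage between them. The fit had 1 mean per stage over all 15 arrays. A test required detection on the 3 arrays of either stage or both. A call required a change of 2-fold or more and an adjusted p (Benjamini-Hochberg, over all probes tested) below 0.05. No label says that the pools came from separate spawnings, so the p-values measure the spread between these pools.

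Between juveniles and the D-shaped stage, across the umbonal peak, 161 of the 200 probes could be tested, and every one of them was detected in all juvenile pools. Of these, 62 were higher in juveniles and 10 lower, with a median difference of 0.57 on the log2 scale. Over all 51927 probes tested, 20.8% were higher and 24.3% lower, with a median of -0.16. Of the 62, 19 were detected on no D-shaped array and 22 on 1 or 2, and such probes could pass the filter only through the juvenile stage. Among the 79 probes detected on all 6 arrays, 21 were higher in juveniles and 10 lower (median 0.16), against 14.1% and 28.9% of 40428 probes (median -0.36). Within slide 2 there is a single D-shaped array, whose spread was assumed to be that of the umbonal and juvenile pools. There 61 were higher and 25 lower of 173 tested, against 19.1% and 24.9% of 54033 probes.

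**Figure D4:**
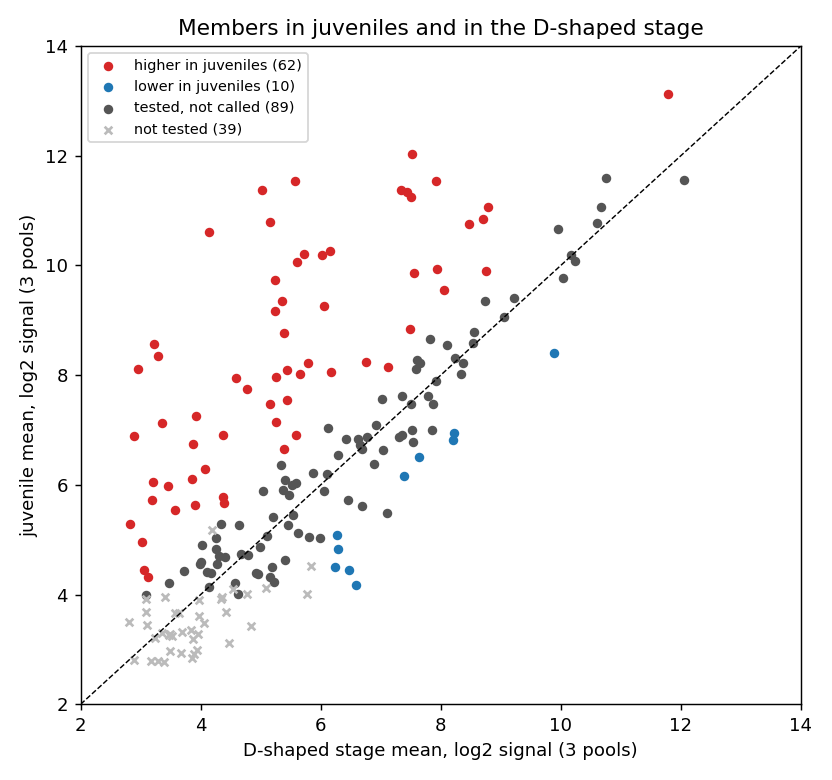
Juvenile mean (vertical axis) against D-shaped mean (horizontal axis) of the 200 probes in quantile-normalized log2 signal, each from 3 pools, coloured by the limma call, with equal levels on the dashed line. The 62 probes called higher in juveniles lie up to 6.46 units above the line, whereas the 10 called lower lie at most 2.42 units below it, and 39 dim probes were not tested.

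The largest difference among probes detected on all 6 arrays was that of CUST_23689. It had 11.57, 11.501 and 11.54 in juveniles, against 5.43, 5.84 and 5.43 at the D-shaped stage, and 14.15, 13.97 and 13.91 at the umbonal stage between them. The difference between juveniles and the D-shaped stage was 5.97 ± 0.47 (SE, adjusted p = 1.8e-07), so the juvenile level lay nearer to the umbonal level than to the D-shaped level. CUST_57125 came next, with a difference of 4.51 ± 0.45 (SE, adjusted p = 1.5e-06).

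The largest decreases were those of CUST_48255 and CUST_11107, which had returned to a low level in juveniles. CUST_48255 had 4.59, 4.04 and 3.88 in juveniles, against 6.06, 5.81 and 7.90 at the D-shaped stage, a difference of -2.42 ± 0.56 (SE, adjusted p = 0.0019). D-shaped pool 3 stood well above the other D-shaped pools of this probe, and within slide 2, against that pool alone, the difference was -3.73. CUST_11107 had 4.44, 4.54 and 4.35 in juveniles, against 6.44, 6.44 and 6.53 at the D-shaped stage (-2.03 ± 0.43, SE, adjusted p = 0.0011). The umbonal level of CUST_11107 was 9.22-fold higher than the D-shaped level and 37.6-fold higher than the juvenile level.

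Between the D-shaped and trochophore stages, 82 probes could be tested. Of these, 37 were higher at the D-shaped stage and 3 lower (median difference 0.97), against 16.9% and 16.6% of all 42202 probes tested (median -0.16). Of the 37, 22 were detected on no trochophore array and could pass only through the D-shaped stage. Among the 33 probes detected on all 6 arrays, 9 were higher and 0 lower by limma (median 0.18), against 10.6% and 16.9% of 34175 probes (median -0.26). Within slide 1, with D-shaped pools 1 and 2 alone, 38 were higher and 3 lower, against 16.3% and 17.0% of 42211 probes.

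CUST_41514 had the largest increase among those detected on all 6 arrays. It had 12.24, 12.42 and 11.51 at the D-shaped stage, against 9.33, 8.97 and 9.02 at the trochophore stage, a difference of 2.95 ± 0.34 (SE, adjusted p = 7.9e-06). It continued to 15.25, 14.99 and 15.28 at the umbonal stage and had 11.36, 11.63 and 11.66 in juveniles, which did not pass the test against the D-shaped stage (adjusted p = 0.21). CUST_31484 was next, with 2.75 ± 0.17 (SE, adjusted p = 2.2e-08). CUST_5285, just inside the limit of the rule, was detected on no egg or trochophore array and had 8.74, 9.06 and 8.38 at the D-shaped stage. It could pass the filter only through the D-shaped stage, which was at least 6.45-fold higher than the trochophore stage. The limma adjusted p of 4.4e-07 belongs to the measured difference from undetected trochophore values, not to this bound.

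Of the 37 probes higher at the D-shaped stage than at the trochophore stage, 9 were higher again in juveniles than at the D-shaped stage, 7 were lower and 21 were tested and not called. Over all 7042 unigene probes that were higher at the D-shaped stage, the shares were 20.8%, 35.5% and 43.7%.

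Between the trochophore stage and fertilized eggs, 39 probes could be tested. Of these, 15 were higher at the trochophore stage and 10 lower (median 0.12), against 26.0% and 27.1% of all 38147 probes tested (median -0.07). Without fertilized-egg pool 1, the array with the shared lowest value, 51 could be tested, and 13 were higher and 18 lower. The median over all probes tested was then -0.16, against -0.07 with that pool. No shares over all probes are given for this setting, so whether the change of direction is particular to these probes was not tested. Among the 18 probes detected on all 6 arrays, 2 were higher and 7 lower (median -0.70), against 16.5% and 27.8% of 28429 probes (median -0.27). The small number of probes detected this early limits the count.

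The increases called among the 18 were those of CUST_48328 and CUST_9698. CUST_48328 had 11.06, 11.03 and 11.15 at the trochophore stage, against 9.16, 8.96 and 8.65 in eggs (2.16 ± 0.14, SE, adjusted p = 2e-08). Its levels were 10.72, 10.70 and 10.86 at the D-shaped stage, 13.97, 14.12 and 14.01 at the umbonal stage and 11.45, 11.70 and 11.63 in juveniles. Juveniles lay above the D-shaped pools without overlap, by less than 2-fold (0.84 ± 0.14, SE, adjusted p = 0.00021), and were not called. CUST_9698 had 9.96, 9.84 and 9.76 at the trochophore stage, against 8.23, 8.02 and 7.99 in eggs (1.77 ± 0.16, SE, adjusted p = 3.1e-07).

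CUST_6467 showed the largest decrease and was the clearest case of a transcript present in eggs, low in the trochophore and high again later. It had 6.67, 6.74 and 6.28 at the trochophore stage, against 9.93, 9.76 and 9.32 in eggs (-3.11 ± 0.22, SE, adjusted p = 3.4e-08). At the D-shaped stage it had 8.61, 8.17 and 8.86, an increase of 1.98 ± 0.22 over the trochophore stage (SE, adjusted p = 5.6e-06). The umbonal levels were 11.77, 11.76 and 12.13, and the juvenile levels 8.78, 8.96 and 8.59. CUST_17686 had the second largest decrease and is described below with its pathway. CUST_47065 moved the other way by the most of these named probes. Detected in 2 egg pools, it could pass the filter only through the trochophore stage. It had 11.17, 11.57 and 11.72 at the trochophore stage, against 7.37, 7.39 and 7.55 in eggs (4.05 ± 0.19, SE, limma adjusted p = 9.4e-10).

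Of the 200 probes, 96 were called at none of these 3 comparisons and 4 at all of them, against 35.4% and 5.75% of all unigene probes. The 96 include 39 probes that could be tested at none.

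Functional terms were at hand for 15 of the 200 probes. They come from lists in which the study names probes for pathway and cellular location terms that changed between consecutive stages. These lists were held here only in part and were chosen by the study on these samples, so they are no independent evidence, and the other 185 probes are without a term here. The pathway names and the roles below are those known from vertebrates, and a term does not name the gene. Each term is read against the 16.2% of all filtered probes that were highest at the umbonal stage.

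The largest group was complement and coagulation cascades, a pathway of serine proteases and their inhibitors in body fluids, with 3 probes. CUST_15060 had 6.15, 3.91 and 5.20 in eggs, 4.90, 4.09 and 8.004 at the trochophore stage, 10.79, 10.90 and 10.13 at the D-shaped stage, 14.72, 14.15 and 14.58 at the umbonal stage and 10.55, 10.89 and 10.85 in juveniles. It was higher at the D-shaped stage than at the trochophore stage by 4.94 ± 0.79 (SE, adjusted p = 0.00014), and juveniles had returned to the D-shaped level. Trochophore pool 3 stood above the other trochophore pools and was the only one detected. The probe could therefore pass the filter for that test only through the D-shaped stage, and the size of the difference rests partly on undetected values.

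CUST_12133 was dimmer at the D-shaped stage and did not return to that level. It was off in eggs and trochophores and had 5.80, 6.10 and 6.25 at the D-shaped stage, 13.09, 12.65 and 13.14 at the umbonal stage and 9.32, 9.21 and 9.25 in juveniles. Juveniles were higher than the D-shaped stage by 3.21 ± 0.22 (SE, adjusted p = 4.3e-08). The third, CUST_22212, also listed under ECM-receptor interaction (binding of cells to the extracellular matrix), was detected at the umbonal stage alone, with 9.01, 8.98 and 8.83. Its umbonal level was at least 36.3-fold higher than in juveniles and at least 15.1-fold higher than at the D-shaped stage. The 3 probes of this pathway had different courses on either side of the umbonal peak. Of 35 listed probes of the pathway that passed the umbonal filter, 10 were highest at the umbonal stage. Of 37 tested between juveniles and the D-shaped stage, 15 were higher in juveniles and 8 lower, against 20.8% and 24.3% of all probes tested.

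CUST_17686 was listed under lysosome and glycosaminoglycan degradation, the breakdown of sugar chains of the extracellular matrix, and was detected on all 15 arrays. It had 9.55, 9.49 and 9.61 in eggs, 7.85, 7.60 and 7.48 at the trochophore stage, 7.97, 7.96 and 7.81 at the D-shaped stage, 14.18, 13.81 and 14.32 at the umbonal stage and 11.56, 11.33 and 11.71 in juveniles. It was lower at the trochophore stage than in eggs (-1.91 ± 0.16, SE, adjusted p = 2.1e-07) and higher in juveniles than at the D-shaped stage (3.62 ± 0.16, SE, adjusted p = 1e-09). Of 34 listed probes of glycosaminoglycan degradation that passed the umbonal filter, 13 were highest at the umbonal stage, and of 27 of the lysosome, 10.

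CUST_16985 was listed under xenobiotic metabolism by cytochrome P450, retinol metabolism and steroid hormone biosynthesis, pathways that share enzymes which oxidize or conjugate small molecules. It was off in eggs and had 7.81, 7.72 and 7.50 at the trochophore stage, 10.51, 9.78 and 10.41 at the D-shaped stage, 12.96 ± 0.04 (SD, n = 3) at the umbonal stage and 9.90, 10.14 and 10.19 in juveniles. Since no egg array was above background, the trochophore stage was at least 1.89-fold higher than eggs, and it alone let the probe pass the filter. The limma adjusted p of 2.2e-08 belongs to the measured difference from undetected egg values, not to this bound. The D-shaped stage was higher than the trochophore stage by 2.56 ± 0.23 (SE, adjusted p = 8.1e-07). Juveniles did not pass the test against the D-shaped stage (adjusted p = 0.57). Of the listed probes that passed the filter, 8 of 27 for xenobiotic metabolism, 11 of 28 for retinol metabolism and 12 of 31 for steroid hormone biosynthesis were highest at the umbonal stage. Many probes stand in several of these lists, so the counts are not separate.

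CUST_27382 carried the terms dynein complex, cilium and microtubule. Axonemal dynein is the motor of beating cilia, such as those of the velum. Its umbonal levels were 7.96, 7.87 and 8.01, against 4.52, 4.39 and 4.23 in juveniles, 11.9-fold higher. At the earlier stages it had 6.86, 6.37 and 5.79 in eggs, 5.47, 5.62 and 6.03 at the trochophore stage and 5.11, 4.43 and 5.32 at the D-shaped stage, where 1 trochophore and 1 D-shaped array were above background. Of 24 listed dynein complex probes that passed the umbonal filter, 20 were highest at the umbonal stage, and of 30 cilium probes, 15. Of the dynein complex probes tested between juveniles and the D-shaped stage, 0 of 23 were higher in juveniles and 11 were lower by limma, against 20.8% and 24.3% of all probes tested. Of the 19 tested between the D-shaped and trochophore stages 0 were called, against 16.9% higher and 16.6% lower of all probes tested. Of all these dynein complex and cilium probes, 1 was among the 200.

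**Figure D5:**
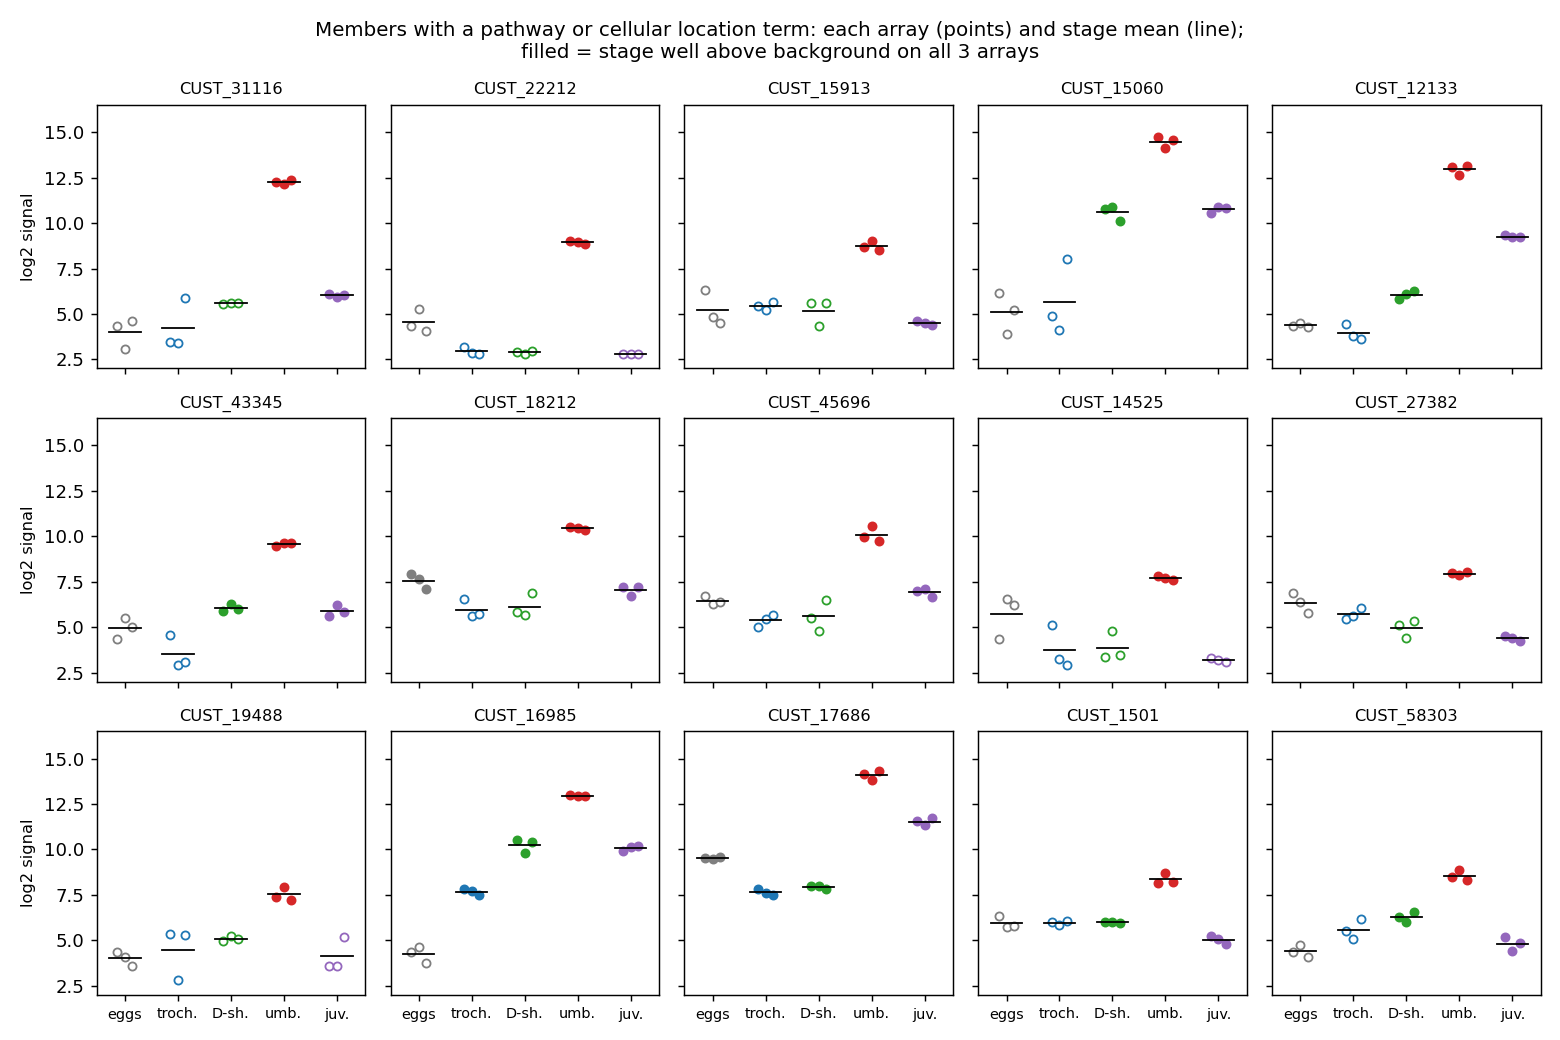
Quantile-normalized log2 signal (vertical axis) on each array (points) of the 15 probes with a pathway or cellular location term at the 5 stages in developmental order, with the stage mean as a line and filled points where the stage was well above background on all 3 arrays. The umbonal points are the highest in each panel, CUST_16985 and CUST_15060 are high at the D-shaped stage already, and CUST_22212 and CUST_14525 are filled at the umbonal stage alone.

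The other probes with a term belonged to pathways of several kinds. CUST_31116, listed under p53 signaling (the response to DNA damage and cell stress), had 12.28, 12.16 and 12.38 in the umbonal pools, against 6.10, 5.93 and 6.05 in juveniles, 75.8-fold higher. Its D-shaped levels were 5.55, 5.62 and 5.58, and juveniles did not pass the test against them (0.44 ± 0.54, SE, adjusted p = 0.49). Of 35 listed probes of this pathway that passed the filter, 6 were highest at the umbonal stage, close to the share over all probes.

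CUST_45696 (glycerolipid metabolism) had 9.96, 10.55 and 9.74 in the umbonal pools, against 6.98, 7.12 and 6.64 in juveniles, and juveniles were higher than the D-shaped stage by 1.32 ± 0.35 (SE, adjusted p = 0.0051). CUST_18212 (apoptosis and focal adhesion) had 10.50, 10.44 and 10.37 in the umbonal pools, against 7.20, 6.73 and 7.19 in juveniles. It was the one probe of this group present in all egg pools apart from CUST_17686. It was lower at the trochophore stage than in eggs (-1.61 ± 0.33, SE, limma adjusted p = 0.00062). Only 1 trochophore array was above background, so it could pass the filter only through eggs, and the size rests partly on undetected values. CUST_43345 (nucleolus, where ribosomes are assembled) had 9.45, 9.62 and 9.65 in the umbonal pools. It was detected on no trochophore array and could pass only through the D-shaped stage, where the lower bound of 1.01-fold leaves almost no sure rise. The limma adjusted p of 9.6e-05 belongs to the measured difference from undetected values (2.53 ± 0.38, SE), not to this bound. Its juvenile and D-shaped means of 5.89 and 6.05 did not pass the test (adjusted p = 0.73).

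CUST_58303 (fatty acid biosynthesis) had 8.47, 8.84 and 8.35 at the umbonal stage, and its juvenile levels of 5.21, 4.41 and 4.85 were lower than the D-shaped levels of 6.29 ± 0.29 (SD, n = 3), a difference of -1.47 ± 0.29 (SE, limma adjusted p = 0.00069). CUST_1501 (cell adhesion molecules) had 8.16, 8.70 and 8.19 at the umbonal stage, against 5.21, 5.08 and 4.80 in juveniles, and lay between 5.75 and 6.32 on all 9 earlier arrays. Its juvenile level was lower than the D-shaped level by less than 2-fold (-0.96 ± 0.19, SE, adjusted p = 0.00065) and was not called. CUST_15913, listed under Huntington's disease, had 8.71, 9.03 and 8.54 at the umbonal stage, against 4.61, 4.50 and 4.40 in juveniles. That pathway list holds many general cell components, and the term says nothing of disease in an oyster.

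The last 2 were dim. CUST_14525 (adherens junction and muscle contraction terms) had 7.79, 7.69 and 7.57 at the umbonal stage and was detected at no other stage, at least 15.2-fold higher than in juveniles. CUST_19488, listed under several signaling pathways, among them ErbB and MAPK signaling, had 7.39, 7.95 and 7.23 at the umbonal stage, against 3.57, 3.59 and 5.18 in juveniles, where 1 array was above background.

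Some of the 200 probes varied between pools of a stage. CUST_12018 had the widest umbonal spread, with 9.50, 8.03 and 10.22, and was chosen after its values were seen. Its juvenile levels of 5.96, 5.76 and 6.21 still did not overlap with these. CUST_11142 was also chosen after its values were seen. It had 9.53, 8.91 and 9.60 in the umbonal pools, but 6.16, 8.72 and 5.81 at the trochophore stage and 8.72, 7.996 and 4.60 at the D-shaped stage. Its spot on juvenile array 3 was an outlier, so its fit used 14 arrays.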

How the data were processed

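Transcript levels were measured on 15 one-colour Agilent arrays, 3 pools for each of 5 stages. Per the file headers, the deposited intensity values come from Feature Extraction 11.5.1.1, which subtracted the background and did not normalize arrays against each other. The authors also deposited a table of log2 values from GeneSpring GX. In that table each array's log2 scanner signal is lowered by a single constant, near its 75th percentile, with no sign of quantile normalization. It set the score. The well-above-background flag is the deposited one.

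For levels and tests, outlier spots (17 to 56 per array) were left out, spots of 1 probe averaged, signals floored at 1, and log2 values quantile-normalized over 58883 probes. Adjusted p values are those of limma 3.58.1 in R 4.3.3, fitted over all probes, and a call needed an adjusted p under 0.05 and 2-fold. The comparisons with the umbonal stage were not tested, since the rule used them. The 200 probes, the lists and the tests were chosen with earlier results of these data known. The probes named are the 10 highest scores, the 5 highest umbonal, juvenile and D-shaped means, those with a term, the 2 largest increases and decreases per comparison among probes detected on all 6 arrays, and 3 on each side of the limit. Others are named as chosen after their values were seen. Figures and tables were made with Python 3.11.15, pandas 2.3.3 and matplotlib 3.10.9.

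Replicate numbers were not used to pair arrays, because the deviations from the stage mean of arrays of the same number correlated between -0.22 and 0.11 over 30 pairs. Alternatives were other scalings, normexp with an offset of 50 on the median signal (mean signals were not used here), other filters, the slide or the replicate number as a block and each array left out. The number of arrays limits the precision. Columns of fold changes and p-values in the study's lists were not used.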

Additional observations from a re-analysis of the deposited data

Results flagged for a closer look

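The array also carried 300 probes designed from GenBank sequences, which are not in the authors' processed table and so could not be among the 200. Of these, 244 were well above background on the 3 umbonal arrays, and 4 had a score at or above the lowest of the 200 (2.18) when each array was scaled to its 75th percentile. CUST_251_PI429683413 had a score of 3.26, with 8.99, 9.26 and 9.19 in the umbonal pools, against 5.45, 5.40 and 4.95 in juveniles. CUST_175_PI429683413 had a score of 3.22 and CUST_211_PI429683413 of 3.13, both detected in all umbonal and juvenile pools and in no egg or trochophore pool. CUST_104_PI429683413 had a score of 2.68 and was detected in all D-shaped, umbonal and juvenile pools. Their gene names were not used here.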

How the results depend on the processing

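Of the 200 probes, 136 to 185 were again among the 200 highest scores after quantile normalization (162), spike-in scaling (169), normexp (136) or medians (185), and 187 to 200 with each array left out. On the arrays of slide 2 alone, an alternative chosen after seeing the data, 157 were. The probes called between juveniles and the D-shaped stage numbered 72, against 46 with normexp, 31 where all 6 arrays had to be above background and 71 to 76 with each array left out. Between the D-shaped and trochophore stages they numbered 40, against 25, 9 and 39 to 44. Between the trochophore stage and eggs they numbered 25, against 9 with all 6 arrays above background, 78 with no filter on dim probes and 24 to 31 with each array left out. The filters differ by construction in the probes tested, and for normexp the cause was not tested.

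Spike-in scaling moved the median of all probes tested to 0.24, 0.43 and 0.42 for these comparisons, against -0.16, -0.16 and -0.07. Then juveniles exceeded the D-shaped stage for 89 of the probes and fell short for 2, the D-shaped stage exceeded the trochophore stage for 56 and fell short for 1, and the trochophore stage exceeded eggs for 20 and fell short for 5. With each array's 75th percentile, the counts were 76 and 5, 46 and 3, and 17 and 7. With the slide as a block, juveniles exceeded the D-shaped stage for 59 of 161 tested and fell short for 15. With the replicate number as a block, the calls numbered 72, 40 and 24. Juveniles came second for 82 probes after quantile normalization, against 128 on the authors' scale, for 81 where the second stage was also above background on all 3 arrays and for 125 to 134 with each array left out, and the D-shaped stage for 29 to 36, against 34. The 21 probes detected at the umbonal stage alone became 27 where 1 other array was allowed and 21 to 24 with an array left out. CUST_11107 lost its call between juveniles and the D-shaped stage with normexp, at a change below 2-fold (-0.82).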
